A study of Mus musculus with 6 samples.

Results

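The interferon regulatory factors (IRFs) are the transcription factors examined here, represented by 8 genes, Irf1, Irf2, Irf3, Irf4, Irf5, Irf7, Irf8 and Irf9, taken by symbol from the 24421 genes of a regulatory T (Treg) cell RNA-seq count matrix. The libraries came from splenic CD4+YFP+ cells of female C57BL/6 mice that were 8 to 11 weeks old. The WT group was 3 Foxp3Cre mice and the KO group was 3 Foxp3Cre miR-142fl/fl mice, with 1 library per mouse. Mice of both groups carried the Cre-YFP fusion driven by the endogenous Foxp3 promoter, so the groups differed by the floxed miR-142 alleles, and the cells were sequenced without further treatment. Since the miRNA was lost in every Foxp3-expressing cell of a KO mouse, effects that arise within a Treg cell and effects of a changed spleen cannot be told apart in these libraries.

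IRFs share a DNA-binding domain that recognises repeats of the letters GAAA, the core of the interferon-stimulated response element (ISRE). Irf1 is induced by interferon gamma, whose signal acts at the gamma-activated site (GAS), and Irf2 binds the same elements as Irf1 and often opposes it. Irf9 is the DNA-binding part of the complex that carries type I interferon signals, Irf3, Irf5 and Irf7 are activated downstream of nucleic acid sensors, and Irf4 and Irf8 act in lymphoid and myeloid cells with partner factors. In Treg cells, Irf4 is known for its part in the effector program.

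The deleted miRNA gives 2 mature strands, shown here because their seeds (bases 2 to 8, in capitals) define the sites searched in the IRF transcripts. Both sequences are from RefSeq on GRCm38.p6, the build that mm10 names, where Mir142 lies on the plus strand of chromosome 11.
mmu-miR-142a-3p: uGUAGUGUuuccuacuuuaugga
mmu-miR-142a-5p: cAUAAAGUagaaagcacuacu
The match to bases 2 to 8 reads ACACTAC for the 3p strand and ACTTTAT for the 5p strand, and a match to bases 3 to 9 of the 3p strand, whose seed in one form is shifted by a base, reads AACACTA. A match of 6 bases followed by an A was counted as well, which reads CACTACA for the 3p strand, CTTTATA for the 5p strand and ACACTAA for the shifted 3p form. Among the 10782 tested genes with an annotated 3′ UTR in the longest coding transcript that has one, 22.6% held a 3p match of either register and 23.3% a 5p match.

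Of the 8 IRF genes, 2 held a match of any of these kinds, against 37.2% of the 10782 genes. The Irf1 match was the 7-base shifted 3p form in exon 10, the last, at chr11:53777078-53777084 (plus strand, base 632 of an 877-base 3′ UTR), and the Irf9 match was the 5p form over 8 bases in exon 10 at chr14:55609381-55609388 (plus strand, base 350 of 999). Each is printed with 9 flanking bases, the match in capitals.
Irf1: cagaggtgtACACTAAcatttctcc
Irf9: aatctaagcACTTTATAtattttatc
The Irf1 match lies in transcripts Irf1-202 and Irf1-201. Of the annotated coding transcripts of Irf1, only these held it in the 3′ UTR. No match of these kinds was found in the annotated 3′ UTRs of Irf2, Irf3, Irf4, Irf5, Irf7 or Irf8, whose lengths ran from 502 bases (Irf3) to 3309 bases (Irf4).

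All 8 genes were well measured, with between 250 and 12497 counts in a library, from libraries of 13883069 to 24042994 counts. Levels are given as CPM, counts scaled to the library size after TMM normalization. KO was compared with WT by edgeR's quasi-likelihood F (QLF) test over the 11658 genes that passed the filter (above 1 CPM in 3 or more libraries), with a Benjamini-Hochberg false discovery rate (FDR) under 0.05 as the threshold. Mir142b, the antisense annotation over the deleted gene, had 147, 101 and 105 counts in the WT libraries and 7, 5 and 5 in the KO libraries, while Mir142 had 0 counts in every library. Foxp3, the defining Treg gene, stood between 536 and 749 CPM in all 6 libraries, and the sum of 7 Treg genes between 4816 and 7688 CPM. KO replicate 1 stood apart: it also held transcripts of other cell types. Its summed level was 2851 CPM for 12 monocyte and macrophage genes, 1038 CPM for 13 neutrophil genes, 250 CPM for 9 B cell genes and 207 CPM for 12 dendritic cell genes, and the highest of the other libraries had 78.4, 49.5, 22.2 and 47.1 CPM. All genes of the monocyte and macrophage, B cell and dendritic cell lists and 12 of the 13 neutrophil genes were highest in KO replicate 1. S100a8, a defining neutrophil gene, had 176 CPM there, 0.890 CPM in KO replicate 3 and 0 counts in the other libraries. For this reason the values of the 8 genes and the list counts are also given without that library, and the plot of marker sums shows all libraries.

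**Figure D1:**
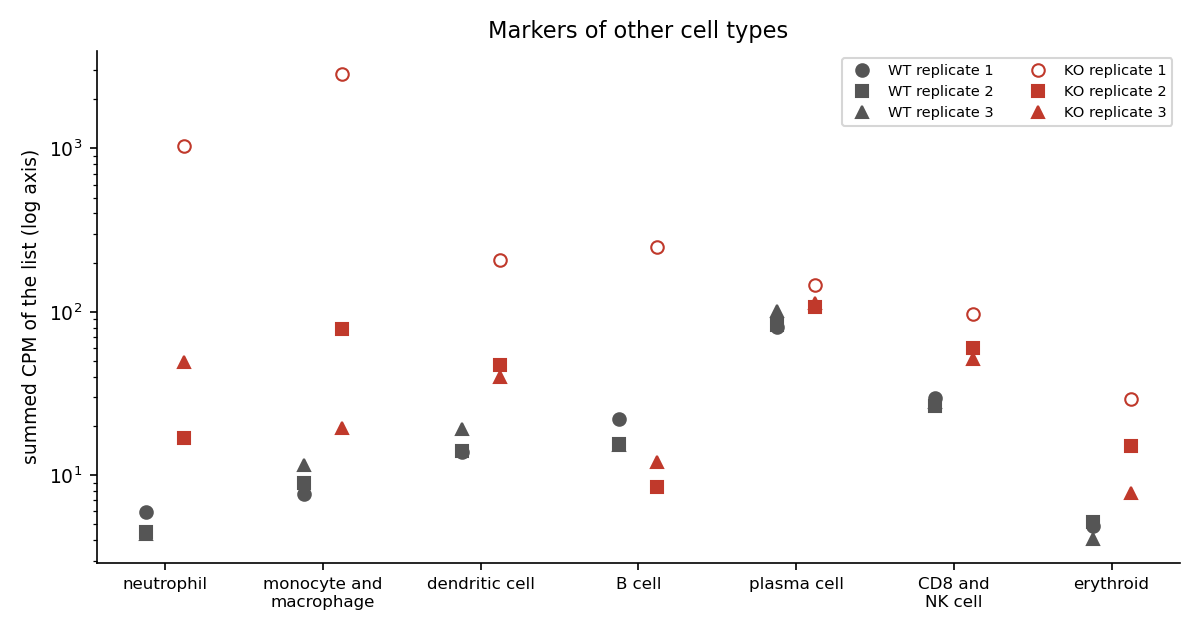
Summed CPM (log axis) of marker genes of 7 other cell types in each of the 6 libraries; grey symbols are WT, red symbols KO, and the open circle is KO replicate 1. KO replicate 1 has the highest sum in every list, from 29.4 CPM of erythroid genes to 2851 CPM of monocyte and macrophage genes, and the plasma cell sums differ least.

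Irf3 was the only IRF gene that passed the test, and it fell in KO Treg cells to 0.748 of the WT level. Irf1 and Irf8 were higher in every KO library than in any WT library but missed the threshold, and Irf9 was lower in every KO library and also missed it. The libraries of the groups overlapped for Irf2, Irf4, Irf5 and Irf7. Thus 1 of 8 IRF genes was called, against 18.8% of all tested genes, with 0 called higher (11.6% of all genes) and 1 called lower (7.27%). In addition, 2 of 8 lay wholly above WT (22.2% of all genes) and 2 wholly below (18.8%), shares near those of all genes. By unadjusted p under 0.05, 3 of the 8 passed, against 34.8% of all tested genes. DESeq2 called 1 of the 8 higher, Irf1, and it called 1665 of all tested genes higher, against 1350 by QLF. The median log2 fold change of the 8 was 0.18, and that of all tested genes was 0.016.

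**Figure D2:**
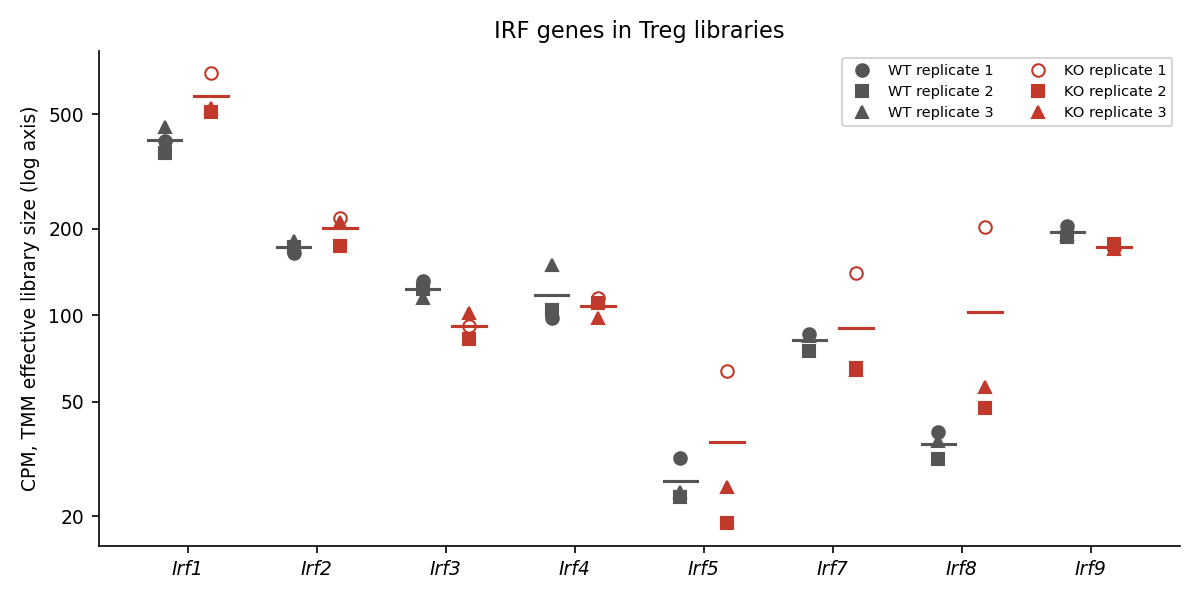
CPM (log axis) of the 8 IRF genes in the 3 WT (grey) and 3 KO (red) libraries, with bars at the group means and KO replicate 1 as an open circle. Irf3 is lower in each KO library (82.7 to 102 CPM) than in each WT library (115 to 131 CPM), and Irf5, Irf7 and Irf8 have a KO mean drawn up by KO replicate 1.

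Irf1 had the highest level of the family in both groups. The annotation of GRCm38 (GENCODE vM21) places it at chr11:53770014-53778374 on the plus strand. Its CPM was 402, 365 and 451 in the WT libraries and 694, 509 and 526 in the KO libraries, in the order of the replicate numbers, as for every gene that follows. All KO values exceeded all WT values, KO replicate 1 the most. The log2 fold change was 0.51 (SE 0.15, FDR = 0.0510, QLF test). The value was 0.34 (SE 0.12, FDR = 0.0815, QLF) once KO replicate 1 was left out. Irf1 is one of the genes the study itself displayed from these libraries, so its inclusion was not independent of its direction. Its opponent Irf2 (chr8:46739732-46847458, plus strand) had 165, 172 and 181 CPM in WT and 218, 174 and 211 CPM in KO. KO replicate 2 lay inside the WT range, and the log2 fold change of 0.22 (SE 0.11) had an FDR of 0.184; without KO replicate 1 it was 0.14 (FDR = 0.420, QLF). The ratio of Irf1 to Irf2 per kilobase (kb) was 2.85, 2.48 and 2.91 in WT and 3.71, 3.41 and 2.92 in KO, where KO replicate 3 was level with the highest WT library. This ratio was chosen after its values were seen, and no test was made.

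The GAS letters TTCNNNGAA, and the ISRE core GAAANNGAAA on either strand, were searched in the promoters of the IRF genes, from 250 bases before to 50 bases after each RefSeq start, 11 windows for the 8 genes. The GAS letters occurred in 8.3% and the ISRE core in 3.44% of all 32851 promoter windows. Windows of Irf1, Irf2 and Irf8 held 1 or more of them, all upstream of the start. The matches are shown with up to 10 flanking bases, the motif in capitals, each read on the strand of the gene.
Irf1, GAS, chr11:53769914-53769942: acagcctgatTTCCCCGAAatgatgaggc
Irf2, ISRE core, chr8:46739495-46739523: tggggaagtGAAAATGAAAttgacttttc
Irf2, GAS, chr8:46739511-46739539: aaattgacttTTCCGAGAAatgatgaaag
Irf8, GAS, chr8:120736177-120736205: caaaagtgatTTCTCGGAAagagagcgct
Irf8, GAS, chr8:120736195-120736223: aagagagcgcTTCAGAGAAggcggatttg
All are on GRCm38.p6 and the plus strand. The motifs did not overlap each other, although the printed windows do. The other windows, including those of Irf3, Irf4, Irf5, Irf7 and Irf9, did not hold these letters.

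Most genes of a list that Irf1 is known to activate, several of which also answer to interferon gamma by other routes, were higher in KO Treg cells. Of 15 tested genes on this list, 12 were called higher and 0 lower (11.6% and 7.27% of all genes), with a median log2 fold change of 0.71. Gbp3, a guanylate-binding GTPase, rose from 86.4 ± 9.80 to 315 ± 57.1 CPM (SD, n = 3 libraries per group; log2 fold change 1.87, SE 0.16, FDR = 0.000996, QLF). Its relative Gbp2 rose from 129 ± 15.8 to 522 ± 154 CPM (log2 fold change 2.02, FDR = 0.00250, QLF), and Psmb8, a subunit of the immunoproteasome, rose by 1.0 on the log2 scale (FDR = 0.00369, QLF). The called genes also included the peptide transporter genes Tap1 and Tap2, the loading factor Tapbp, and Cd274, which encodes PD-L1. Gbp2, Gbp3 and Gbp5 had been displayed by the study from these libraries, so they are not independent evidence of the list's direction. The remaining 3, B2m, Psmb9 and Nlrc5, had positive log2 fold changes of 0.29, 0.40 and 0.13 that did not pass. In the fit without KO replicate 1, 10 of 15 were called higher (9.69% of all genes), and the median was 0.61. Ciita, the regulator of MHC class II genes, was the gene of this list that the one library moved most, with 0.924, 0.984 and 1.16 CPM in WT and 98.8, 3.71 and 4.58 CPM in KO, and its log2 fold change went from 5.12 to 2.0 without it.

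On the receptor side of the pathway, both chains of the interferon gamma receptor rose. Of 10 tested genes for interferon receptor chains, Janus kinases and STATs, 4 were called higher and 0 lower (11.6% and 7.27% of all genes), with a median of 0.28. Ifngr1, the ligand-binding chain of the interferon gamma receptor, rose from 189.6, 189.9 and 209 CPM to 482, 339 and 292 CPM (log2 fold change 0.92, SE 0.18, FDR = 0.0152, QLF). The groups did not overlap, and KO replicate 1 was the highest library. Ifnar1, a chain of the type I interferon receptor, rose by 0.39 on the log2 scale (FDR = 0.0334, QLF), and Ifngr2, the other chain of the interferon gamma receptor, by 0.54 (FDR = 0.0361, QLF). Both receptor genes Ifngr1 and Ifngr2 were among those displayed by the study. Without KO replicate 1, 3 were called higher (9.69% of all genes), and Ifngr2 was lost (FDR = 0.0568, QLF). Of 20 interferon genes, Ifng was the only one expressed enough to test, at 5.85, 13 and 24.6 CPM in WT and 15, 5.68 and 4.38 CPM in KO (log2 fold change -0.78, SE 0.61, FDR = 0.402, QLF, and -1.54, FDR = 0.0833, without KO replicate 1).

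Irf9 (chr14:55603571-55610030, plus strand) had 204, 187 and 191 CPM in WT and 172, 176 and 170.4 CPM in KO. The groups did not overlap, but the difference was small, with a log2 fold change of -0.17 (SE 0.077, 95% confidence interval -0.35 to 0.012, FDR = 0.169, QLF). It was -0.18 without KO replicate 1. Stat2, with which Irf9 acts, had a log2 fold change of -0.10 (FDR = 0.649, QLF), and -0.30 (FDR = 0.0568, QLF) without KO replicate 1. Of 20 genes known as targets of the Irf9 complex, 1 was called higher and 1 lower (11.6% and 7.27% of all genes). Ifi35 rose from 64.6 ± 1.75 to 82.4 ± 8.96 CPM (log2 fold change 0.35, FDR = 0.0492, QLF), and Usp18, a protease that removes Isg15 from proteins and damps type I interferon signaling, fell from 41.8 ± 1.57 to 28.2 ± 5.64 CPM (log2 fold change -0.56, FDR = 0.0445, QLF; SD, n = 3 per group).

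The calls of this list depended on KO replicate 1. Its median log2 fold change was 0.033 with that library and -0.42 without it, where 7 of 20 genes were called lower and 0 higher (7.59% and 9.69% of the 11429 genes tested without that library). The 7 included Oas2, an antiviral synthetase, with 15.7, 21.1 and 20.3 CPM in WT and 28.4, 7.27 and 8.07 CPM in KO. Oas2 in KO replicate 1 was above every WT library, and in the other two KO libraries below every WT library. Its log2 fold change was -0.38 (FDR = 0.635, QLF) with all libraries and -1.33 (FDR = 0.00327, QLF) without KO replicate 1. The part of the other cell types in these values was not tested.

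**Figure D3:**
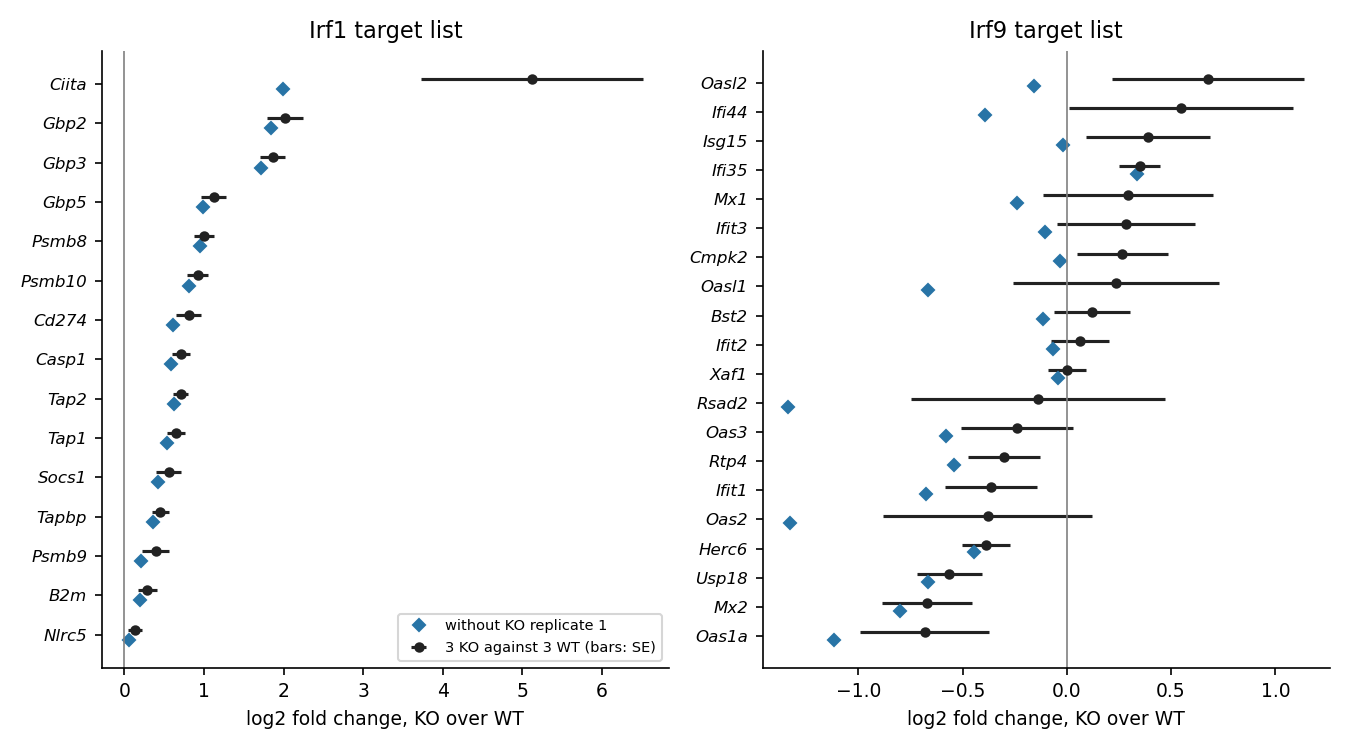
Log2 fold changes (KO over WT) of the 15 tested genes of the Irf1 target list (left) and the 20 of the Irf9 target list (right), with all libraries (black circles, bars are SE) and without KO replicate 1 (blue diamonds). All 15 Irf1 targets lie above 0 in both, whereas the median of the Irf9 targets moves from 0.033 to -0.42.

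Among the factors activated by nucleic acid sensing, Irf3 fell, and Irf5 and Irf7 depended on KO replicate 1. Irf3 (chr7:44997648-45002848, plus strand) had 131, 123 and 115 CPM in WT and 91.6, 82.7 and 102 CPM in KO. Every KO library was below every WT library, and KO replicate 1 lay between the other KO libraries. The log2 fold change was -0.42 (SE 0.10, 95% confidence interval -0.66 to -0.18, FDR = 0.0317, QLF) and -0.43 (FDR = 0.0422, QLF) without KO replicate 1. Lower Irf3 RNA in a bulk library may reflect fewer cells with the transcript or less of it per cell, and these cannot be told apart. The call was lost when any one of the WT libraries was left out, with FDR = 0.0904, 0.111 and 0.0736 without WT replicates 1, 2 and 3 (QLF). The genes outside the family with the profile most like that of Irf3 were Pygo2, Trim12c and Mon1b, with a root mean square difference of 0.011, 0.015 and 0.027 between centred log2 CPM profiles over the 6 libraries.

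Irf7 (chr7:141262706-141266481, minus strand), known for amplifying type I interferon production, had 86.3, 74.9 and 85.0 CPM in WT and 140.2, 65.4 and 64.7 CPM in KO. KO replicate 1 lay above all WT libraries, and the other two KO libraries lay below all of them. With all libraries the log2 fold change was 0.14 (SE 0.29, FDR = 0.773, QLF). Leaving out KO replicate 1 reversed it to -0.35 (SE 0.10), with an FDR of 0.05003 (QLF), so that it just missed the threshold and was not called. Irf5 (chr6:29526625-29541871, plus strand), a factor of macrophages and B cells, had 31.8, 23.3 and 24.2 CPM in WT and 64.2, 18.9 and 25.3 CPM in KO. Its log2 fold change of 0.46 (SE 0.43, FDR = 0.491, QLF) turned to -0.27 (SE 0.19, FDR = 0.360, QLF) without KO replicate 1. The levels of Irf7 and Irf5 in KO replicate 1 were 2.15 and 2.91 times the mean of the other two KO libraries.

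The sensors and adaptors upstream of these factors mostly did not pass the test. Of 17 tested, 0 were called higher and 1 lower (11.6% and 7.27% of all genes), with a median of 0.059. Trim25, a ubiquitin ligase that activates the RNA sensor RIG-I, fell from 160.1, 144 and 172 CPM to 119, 114 and 99.6 CPM (log2 fold change -0.52, SE 0.10, FDR = 0.0161, QLF). The groups did not overlap. Without KO replicate 1, 2 of 17 were called lower (7.59% of all genes), Trim25 and the endosomal RNA receptor Tlr7. Tlr7 had 39.8, 45.9 and 39.7 CPM in WT and 61.8, 24.6 and 21.5 CPM in KO (log2 fold change -0.88, FDR = 0.00489, QLF, without that library). As for Irf7, the highest library was KO replicate 1 and the other two KO libraries were the lowest. The gene is named here after its values were seen.

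Irf8 (chr8:120736358-120756694, plus strand), a factor of dendritic cell, monocyte and B cell development, had the largest fitted change of the family. It stood at 39.2, 31.5 and 36.5 CPM in WT and at 203, 47.4 and 56.3 CPM in KO. All KO libraries were above all WT libraries, and KO replicate 1 had 3.92 times the mean of the other two. With all libraries the log2 fold change of 1.52 (SE 0.53) had an FDR of 0.0868 (QLF). Without KO replicate 1 the estimate was 0.52 (SE 0.14), a fold change of 1.44, and passed the test with an FDR of 0.0375 (QLF). Irf8 and Irf5 were the 2 of 8 IRF genes with over 2-fold more CPM in KO replicate 1 than in each other library, against 3.85% of all tested genes. In KO replicates 2 and 3 the B cell gene sums were 8.48 and 12 CPM, below the WT range of 15.3 to 22.2 CPM. Their dendritic cell gene sums were 47.1 and 40.0 CPM, above the WT range of 13.9 to 19.0 CPM, but Ccr9, Ly6d and Zbtb46 made up nearly all of them, and the defining genes Siglech, Clec9a, Itgax and Flt3 were at 0.274 CPM or less. The neutrophil and the monocyte and macrophage sums in those libraries were also above WT. In the former most came from Mmp9, Mpo and Elane, with S100a8 at 0 and 0.890 CPM. In the latter Vcam1 had the largest part, with 35.1 and 11.2 CPM, and Cd68 was lower than in any WT library. The part of such cells in the Irf8 level was not tested.

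Irf4 (chr13:30749226-30766976, plus strand) did not pass the test. It had 98.0, 105 and 149.8 CPM in WT and 115, 110.4 and 97.8 CPM in KO. WT replicate 3 was the highest library, and the groups overlapped. The log2 fold change was -0.13 (SE 0.17, 95% confidence interval -0.52 to 0.27, FDR = 0.633, QLF), an interval that leaves room for changes in both directions. It was -0.19 (FDR = 0.507, QLF) without KO replicate 1 and 0.083 (FDR = 0.688, QLF) without WT replicate 3. Of 7 tested effector T cell genes known to depend on Irf4, 3 were called higher and 0 lower (11.6% and 7.27% of all genes), with a median of 0.53. Il4, a cytokine of type 2 responses, rose from 1.79, 1.97 and 1.94 CPM to 5.99, 4.24 and 4.65 CPM (log2 fold change 1.39, FDR = 0.00833, QLF). Prdm1, which encodes the repressor Blimp-1, rose from 43.0, 62.6 and 44.2 CPM to 155, 80.1 and 92.6 CPM (log2 fold change 1.13, FDR = 0.0280, QLF). Il1rl1, the receptor for interleukin 33, rose from 77.9 ± 15.0 to 233 ± 140.1 CPM (SD, n = 3 per group; log2 fold change 1.58, FDR = 0.0322, QLF). All 3 were called without KO replicate 1 as well, and the list median was then 0.066.

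Of 6 tested partner genes of Irf4 and Irf8, 0 were called, against 18.8% of all genes. Batf, which binds with Irf4 at composite sites, had 71.4, 68.0 and 49.6 CPM in WT and 59.4, 42.1 and 63.6 CPM in KO. Spi1, the myeloid and B cell partner PU.1, had 0, 0.0410 and 0 CPM in WT and 56.9, 0.227 and 0.958 CPM in KO, and did not pass the filter. Spib, its relative, was likewise at 26.0 CPM in KO replicate 1 and at 0.151 CPM or less elsewhere. Without KO replicate 1, the lymphoid factor Ikzf3 was the only partner gene called higher, against 9.69% of all genes (log2 fold change 0.59, FDR = 0.0250, QLF). The 3 genes for Irf2-binding proteins, Irf2bp1, Irf2bp2 and Irf2bpl, had log2 fold changes of -0.32, 0.18 and -0.08. Of these, 0 were called, against 18.8% of all genes.

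**Figure D4:**
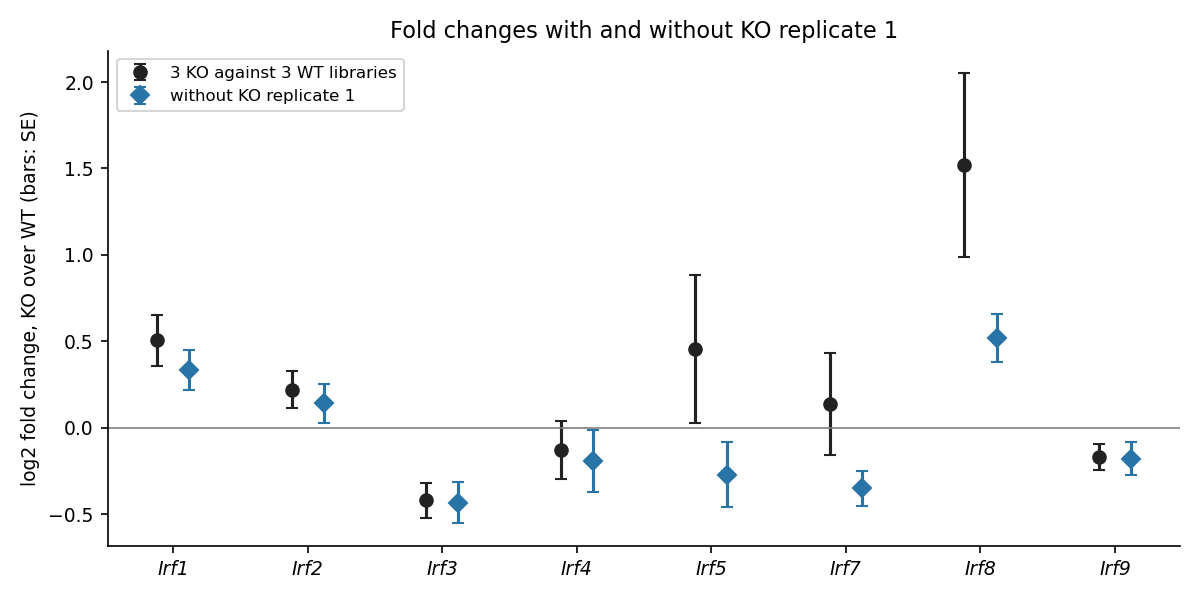
Log2 fold changes of the 8 IRF genes (KO over WT) with all 6 libraries (black circles) and without KO replicate 1 (blue diamonds); bars are SE. Irf5 and Irf7 change sign and Irf8 falls from 1.52 to 0.52, while Irf3 (-0.42 and -0.43) and Irf9 (-0.17 and -0.18) hardly move.

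With the exclusion of KO replicate 1, 2 of 8 IRF genes were called, Irf8 higher and Irf3 lower, against 17.3% of all genes. The median log2 fold change of the 8 went from 0.18 to -0.18, with 3 positive and 5 negative values in place of 5 and 3. The median over all tested genes was -0.016 in that fit.

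To compare levels between the members, CPM was divided by the length of the longest coding transcript of each gene. The order of members and their shares rest on this choice of length. All annotated exons of Irf2 cover 7396 bases, against 2497 in its longest coding transcript. Those of Irf8 cover 7055 against 2847, and those of Irf4 4903 against 4764. Levels per kb of all exons were not computed. In WT, Irf1 stood highest with 189.9 ± 20 CPM per kb (SD, n = 3), above all others in every WT library. Irf2, Irf9 and Irf3 followed with 69.1 ± 3.33, 65.6 ± 3.08 and 60.6 ± 3.91 CPM per kb, and neighbours in this order overlapped between libraries. Irf7 had 36.7 ± 2.81 and Irf4 24.7 ± 5.92 CPM per kb. Irf8 and Irf5 were the lowest and overlapped, with 12.6 ± 1.37 and 11.8 ± 2.08 CPM per kb. In KO the order of the means was the same except that Irf8, with 35.9 ± 30.7 CPM per kb, passed Irf4 with 22.6 ± 1.83; in KO replicates 2 and 3 Irf8 stood at 16.6 and 19.8 CPM per kb, below Irf4 at 23.2 and 20.5.

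Irf1 took a larger share of the family's summed level in each KO library than in any WT library. It made up 39.6%, 38.8% and 42.4% of the summed level per kb of the 8 genes in WT and 46.3%, 49.0% and 47.5% in KO, a difference of 7.32 percentage points. Irf3 went from 12.9% ± 1.32 to 8.16% ± 1.63 and Irf9 from 14% ± 0.855 to 10.5% ± 2.06 (SD, n = 3 per group). The groups did not overlap for these 3 or for Irf8, which went from 2.66% ± 0.209 to 5.80% ± 3.78, and each had an exact two-sided permutation p of 0.1, the smallest that 3 libraries against 3 can give. The other 4 members had larger p in the same test, and no member of the 8 compared could pass a threshold of 0.05. Without KO replicate 1 the difference was 7.99 points for Irf1, -3.90 for Irf3, -2.27 for Irf9 and 0.954 for Irf8, which had been 3.14 with it. Shares are tied to each other, so that a larger share of one gene lowers those of others. The summed level itself was 475, 440.5 and 498 CPM per kb in WT and 702, 486 and 519 in KO (exact permutation p = 0.2).

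**Figure D5:**
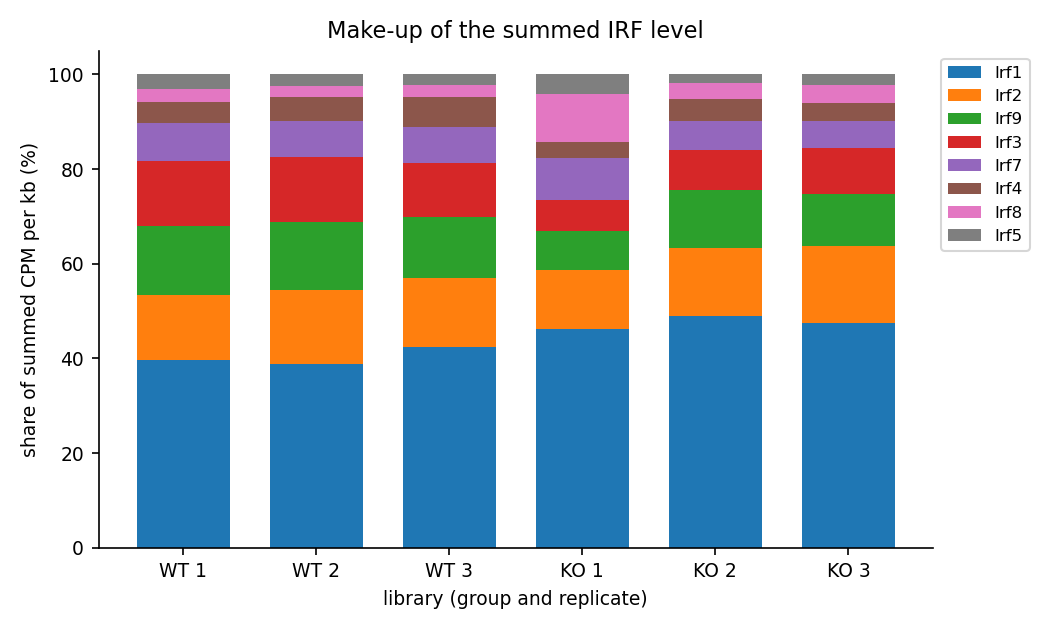
Share (%) of each IRF gene in the summed CPM per kb of the 8 genes, 1 bar per library, stacked in the WT order of levels from Irf1 at the bottom to Irf5. Irf1 takes 38.8% to 42.4% in WT and 46.3% to 49.0% in KO, and the Irf8 band is widest in KO replicate 1 (10.2%).

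Reads were counted without strand, so reads from a gene and an overlapping neighbour cannot be told apart in the shared bases. Exons of Irf3 shared 88 bases with Bcl2l12 on the opposite strand, and those of Irf5, Irf7, Irf1 and Irf9 shared 411 bases with Tnpo3, 45 with Phrf1, 135 with Gm17334 and 123 with Rnf31. Bcl2l12 itself had 11.6, 11 and 11.8 CPM in WT and 8.33, 7.80 and 9.51 CPM in KO (log2 fold change -0.43, FDR = 0.0941, QLF), about the log2 difference of Irf3 at a far lower CPM. Irf2, Irf4 and Irf8 had no exon in common with another annotated gene.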

How the data were processed

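Libraries were those of sorted splenic Treg cells, 3 WT and 3 KO, grouped by sample title. The authors aligned reads with HISAT to mm10 and counted them with featureCounts without strand. They deposited raw counts per gene, unnormalized. Versions and annotation were not given in the sources used here. Counts were tested with edgeR 4.0.16 (R 4.3.3): CPM above 1 in at least 3 libraries, TMM scaling, the QLF test without robust estimation, and FDR under 0.05. The common biological coefficient of variation was 0.212. Permutation tests enumerated all regroupings. Coordinates, transcript lengths and 3′ UTRs were from GENCODE vM21, and miRNAs and promoters from RefSeq. Alternatives covered scaling, DESeq2 1.42.0, filters, threshold, a replicate block, robust estimation, length and leaving out each library. The members and gene lists were chosen with earlier results of these data known. Genes named were all members, up to 3 called genes per list and direction by smallest p, all genes of short lists, and the 3 profiles most like a called member; others are named as examples chosen after their values were seen. The code was tested on simulated counts. KO and WT replicates were from separate mice, 1 library each, and no pair of libraries had counts alike within sampling noise. The values of some single genes are left out.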

Additional observations from a re-analysis of the deposited data

How the results depend on the processing

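The number of IRF genes called higher was 0, and 1 under DESeq2 (Irf1, FDR = 0.00833) and robust estimation (Irf1, FDR = 0.0458). It ran from 0 to 3 when single libraries were left out, with 1 (Irf8) without KO replicate 1 and 3 (Irf1, Irf2, Irf8) without KO replicate 2. The number called lower was 1 (Irf3), and 0 at an FDR under 0.01 and with the replicate block; it ran from 0 to 1 when single libraries were left out, with 0 without each WT library. Over the 14 alternatives the log2 fold change of Irf3 ran from -0.51 to -0.34 with FDR from 0.00414 to 0.111, that of Irf1 from 0.34 to 0.59, that of Irf8 from 0.52 to 1.87, that of Irf5 from -0.27 to 0.77, and that of Irf7 from -0.35 to 0.33. Reversals occurred for Irf4 without WT replicate 3 (0.083), and for Irf5 (-0.27) and Irf7 (-0.35) without KO replicate 1. The difference in share per kb ran from -1.28 to 0.62 percentage points for Irf2 and from -0.55 to 0.62 for Irf5 when single libraries were left out, with reversals without WT replicate 2 (0.14) and KO replicate 1 (0.62) for Irf2 and without WT replicate 3 (-0.0093) and KO replicate 1 (-0.55) for Irf5. The cause of these changes was not tested. Over all genes, 1350 were called higher and 847 lower, against 1064 and 1201 with library size alone, 490 and 196 at an FDR under 0.01, 1061 and 545 with the replicate block, and 483 and 208 without WT replicate 2. DESeq2 called 1665 of all genes higher and 1198 lower, and robust estimation 1321 and 861. The numbers were 1107 and 868 without KO replicate 1, and 1403 and 937 without KO replicate 2. They were 666 and 356 without WT replicate 1, and 555 and 235 without WT replicate 3. The sample titles do not say whether libraries of the same replicate number were paired. Same-numbered deviations correlated at 0.080, -0.0056 and -0.195, and differently numbered ones at -0.183 to 0.207. With so few libraries these values cannot decide whether there was a pairing. Irf3 had -0.42 (FDR = 0.0583, QLF) with the block.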

Other observations

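The ratio of Irf4 to Irf8 per kb was 1.49, 1.98 and 2.45 in WT and 0.337, 1.39 and 1.04 in KO, so that all KO libraries lay below all WT libraries. This ratio was computed after its values were seen and was not tested.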
